A study of Mus musculus with 32 samples.

Results

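Accessible chromatin far from genes was described in mouse limb buds, from 32 lists of ATAC-seq summits. ATAC-seq marks open chromatin by the insertion of a transposase, and a summit is the highest point of a called peak. In each list the summits were ranked by the significance that the peak caller had given them, and the 25000 highest-ranked were used, or the whole list where it was shorter. A summit was taken as a desert summit when it lay over 100 kb from every protein-coding transcription start of the mm10 annotation. Of 774123 summits used, 143312 were desert summits. Merged across the libraries, they fell into 24584 separate intervals of 200 bp, of 95479 intervals in all. For reference, 41.4% of the sequenced bases of the genome lie over 100 kb from a protein-coding start.

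The study asked how ETV2, an ETS-family transcription factor, acts on chromatin in the early limb bud. In its first experiment (18 libraries), EYFP+ cells were sorted from E10.5 embryos of an Etv2-EYFP reporter line, with cells stained for CD31, Tie2 or CD45 excluded. They gave 3 forelimb (FL) and 3 hindlimb (HL) libraries. The FL and HL libraries of the same replicate number were taken as 1 pool of embryos, an assumption that rests on that number. The knockout, Etv2CKO, was HoxB6-Cre Tg/+; Etv2 fl/-, in which the Cre acts in posterior lateral plate and limb mesoderm and the other Etv2 allele is null in every cell. It gave 2 posterior hindlimb libraries at E10.5 and 5 libraries at E10.25, for which no sorting is described and limb buds of a few embryos were pooled. The other libraries of this experiment were 2 of wild-type limb at E10.25 and 1 each of E9.5 hindlimb (E9.5 HL), E10.5 Shh-EGFP+ posterior cells (E10.5 Posterior) and E10.5 anterior hindlimb (E10.5 Anterior). In the second experiment (14 libraries), hindlimb buds of 4 control and 3 Etv2OE embryos were divided into anterior and posterior parts. Etv2OE embryos carried ROSA26-STOP-rtTA-IRES-EGFP Tg/+ and iHA-Etv2 Tg/+ together with HoxB6-Cre Tg/+, so that doxycycline given to the dam induced HA-tagged ETV2 in part of the cells of the Cre lineage. Controls were littermates lacking a transgene of this system. The labels give E10.5 for these embryos, whereas the study's methods describe injections at E9.5 and E10.5 and a later harvest. The labels mark the part by the letter A or P, read here as anterior or posterior. For the E10.25 Etv2CKO and wild-type libraries they give neither limb nor part, which the study describes as posterior hindlimb. The summit lists hold no expression values, so the tissue could not be checked by marker genes. The lists held between 13766 and 54679 summits and no read counts, so sequencing depth is unknown. In tissue of mixed cells, fewer cells with an open site and less opening per cell cannot be told apart.

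Several libraries stood apart before any comparison. The E10.5 Anterior list held 13763 summits outside the mitochondrial genome, E10.25 CKO replicate 2 held 15626 and E10.25 CKO replicate 4 held 19734, so these 3 were used whole. Repeat-masked sequence made up over 50% of the 200-bp window at 62.3% of the desert summits of E10.25 CKO replicate 2, 37.6% of those of E10.5 Anterior, 24.6% of those of E10.25 CKO replicate 1 and 23.1% of those of E10.25 CKO replicate 5. In the EYFP+, control and Etv2OE libraries this share was 1.15% to 3.33%. Summits at the same base in 2 lists made up at most 6.28% of any pair's summits, so no library was a copy of another.

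The name gene desert held only in part. Of the 24584 desert intervals, 7074 (28.8%) lay inside a protein-coding gene, and 2650 (10.8%) inside a noncoding gene only. The remaining 14860 (60.4%) lay between genes. An exon was present at 527 of the intervals (2.14%). Only 5595 (22.8%) were over 100 kb from the start of any annotated transcript, noncoding ones included. The median distance to the nearest protein-coding start was 217 kb, and 767 intervals were over 1000 kb away. The term desert is used below for distance from protein-coding starts alone.

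Enhancers are short stretches of open chromatin that bind transcription factors and act on promoters that can lie far away. Genes that pattern the embryo, among them Hox, Sox, Tbx and Meis genes, are often flanked by long gene-poor stretches that hold many such elements, and well-studied limb bud enhancers act from far within them. An ATAC-seq summit shows an open site but not the gene it acts on, and flanking genes are given here as positions only.

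The sequences on which several of the results turn are printed here, 200 bases each, from the plus strand of mm10 (GRCm38.p6), with matches to any of 8 searched motifs in capitals. Homeodomain proteins, among them the LIM class, often bind TAATTA. Proteins of the ETS family, to which ETV2 belongs, bind the letters AGGAAG. The E-box searched, a site of bHLH proteins, was CAGCTG. Posterior HOX proteins were represented by TTTATNG. For AP-1 the letters were TGANTCA. TEAD proteins of the Hippo pathway were represented by GGAATG. For factors of the GATA family the letters were AGATAA, and the last motif was the core of the CTCF site. Both strands were searched, so a match may appear as its reverse complement. TAATTA was present in 11.99% of desert intervals and 7.26% of all intervals. The posterior HOX letters were present in 18.8% of desert and 11.99% of all intervals, the E-box in 16.04% and 15.2%, and the ETS letters in 23.1% and 22.9%. GATA letters were in 9.29% and 6.94%, TEAD letters in 13.2% and 11.5%, AP-1 letters in 5.57% and 4.73%, and the CTCF core in 1.75% and 2.92%. A match is a string of letters and not a site shown to be bound. The sequences were chosen after their values had been seen. The first 3 sites were open in all 32 libraries and contain no repeated sequence. They lie in an intron of Meis2, between Ndfip2 and Spry2, and in an intron of Dync1i1.
Meis2 intron, chr2:115869173-115869372: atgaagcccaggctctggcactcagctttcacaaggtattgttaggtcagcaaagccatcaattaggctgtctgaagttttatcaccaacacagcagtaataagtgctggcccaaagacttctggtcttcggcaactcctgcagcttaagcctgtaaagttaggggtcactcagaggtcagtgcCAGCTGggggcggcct
Ndfip2-Spry2, chr14:105732390-105732589: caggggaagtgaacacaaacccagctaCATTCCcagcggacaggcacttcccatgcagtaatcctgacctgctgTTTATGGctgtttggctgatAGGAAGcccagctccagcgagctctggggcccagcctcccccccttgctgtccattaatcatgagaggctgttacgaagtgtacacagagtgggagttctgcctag
Dync1i1 intron, chr6:6006011-6006210: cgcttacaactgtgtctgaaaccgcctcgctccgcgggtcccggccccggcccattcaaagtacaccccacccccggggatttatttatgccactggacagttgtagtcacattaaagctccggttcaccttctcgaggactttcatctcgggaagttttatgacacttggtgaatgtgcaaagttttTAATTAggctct
The next pair ranked higher in anterior than in posterior limb bud.
Adgrl3 intron, chr5:81671232-81671431: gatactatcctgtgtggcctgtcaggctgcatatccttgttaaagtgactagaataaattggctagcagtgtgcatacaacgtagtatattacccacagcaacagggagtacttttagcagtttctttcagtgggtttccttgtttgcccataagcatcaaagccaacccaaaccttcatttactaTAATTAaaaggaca
Tbc1d2b-Zic1, chr9:90961539-90961738: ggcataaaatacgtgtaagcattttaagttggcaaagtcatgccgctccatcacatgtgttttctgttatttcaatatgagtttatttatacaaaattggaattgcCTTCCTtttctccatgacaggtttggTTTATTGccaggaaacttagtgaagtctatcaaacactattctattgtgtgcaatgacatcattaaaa
The following pair ranked higher in posterior limb bud. Both contain TTTATNG, for which they were picked from the posterior sites of smallest adjusted p, and the Tbc1d2b-Zic1 site contains it as well.
Kcna4-Mettl15, chr2:108547693-108547892: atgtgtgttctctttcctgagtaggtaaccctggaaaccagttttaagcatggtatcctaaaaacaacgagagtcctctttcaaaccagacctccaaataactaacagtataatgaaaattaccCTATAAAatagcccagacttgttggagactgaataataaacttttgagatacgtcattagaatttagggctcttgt
Fars2 intron, chr13:36529726-36529925: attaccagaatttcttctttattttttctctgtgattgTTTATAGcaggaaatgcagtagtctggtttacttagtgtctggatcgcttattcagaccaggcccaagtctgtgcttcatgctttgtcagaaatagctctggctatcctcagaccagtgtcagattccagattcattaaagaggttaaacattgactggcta
The last, between Cxxc4 and Tacr3, ranked higher in EYFP+ cells than in Etv2CKO limb bud and holds TAATTA at 2 positions.
Cxxc4-Tacr3, chr3:134605615-134605814: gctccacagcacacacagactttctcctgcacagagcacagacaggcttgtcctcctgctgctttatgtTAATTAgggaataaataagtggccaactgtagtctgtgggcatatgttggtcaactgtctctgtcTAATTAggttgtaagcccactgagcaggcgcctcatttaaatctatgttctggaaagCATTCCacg

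Desert summits made up 11.8% to 23.9% of the summits used, with a median of 19.1% over the 32 libraries. The E10.5 knockout and EYFP+ pools 1 and 2 had the highest shares. The FL EYFP+ libraries of pools 1, 2 and 3 had 23.9%, 21.5% and 18.4% desert summits. The HL EYFP+ libraries of the same pools had 23.7%, 20.9% and 17.3%. The order of the pools was the same in both limbs, and the spread between pools exceeded the difference between limbs. The E10.5 Etv2CKO libraries had 22.1% and 21.9%. The 5 E10.25 Etv2CKO libraries had 13.7%, 13.2%, 15.2%, 12.7% and 17.6%, all below the E10.5 knockout, and the E10.25 wild-type libraries had 14.4% and 14.4%. With exact 95% binomial intervals, which cover counting error only, E9.5 HL had 15.5% (15.04 to 15.9%), E10.5 Posterior 15.04% (14.6 to 15.5%) and E10.5 Anterior 11.8% (11.3 to 12.3%). The last is a short list of 13763 summits, and the order turned at equal list length, where the first 10000 summits held 8.45%, 6.85% and 9.93% desert summits in these libraries, beside means of 5.34% in E10.25 wild type and 6.99% in E10.25 Etv2CKO. In the overexpression experiment all 14 libraries lay between 18.4% and 20.3%. The share within 1 kb of a start ran from 40.6% to 58.6% over the 32 libraries.

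**Figure D1:**
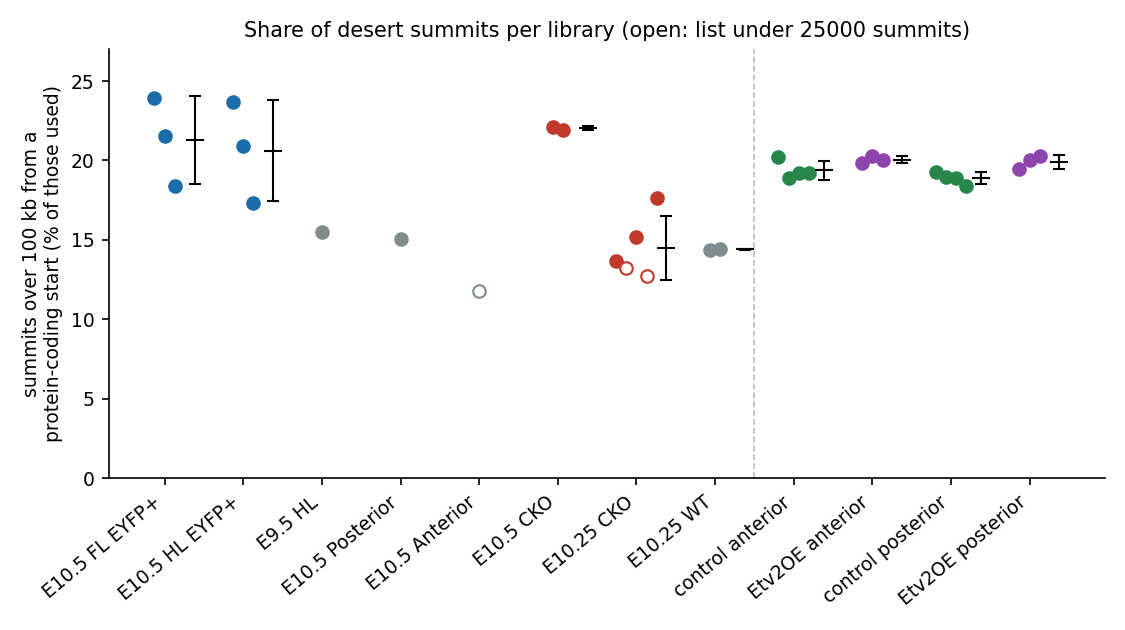
Share of the summits used that lay over 100 kb from a protein-coding start, in percent, for each library (points) by group, with the mean and SD of each replicated group beside the points; open points are the 3 lists shorter than 25000, and the dashed line divides the 2 experiments. The E10.5 knockout libraries sit at 22.1% and 21.9%, above all 5 E10.25 knockout libraries, and the 14 libraries on the right span 18.4% to 20.3%.

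None of the 5 comparisons of this share passed its test (exact permutation tests, two-sided, Benjamini-Hochberg adjusted over the 5). Etv2OE embryos averaged 19.97% ± 0.29 (SD, n = 3) against 19.1% ± 0.43 (n = 4) in controls, a difference of 0.837 percentage points (exact p = 0.114, adjusted p = 0.375), where 0.0571 is the smallest p that 3 against 4 can give. Anterior libraries averaged 19.7% ± 0.55 (n = 7) and posterior libraries 19.3% ± 0.65 (n = 7; exact p = 0.316, adjusted p = 0.527), and the anterior share was the larger in 5 of 7 embryos. That test did not use the pairing of the libraries by embryo. Paired by embryo, a sign-flip permutation test gave p = 0.109 (adjusted p = 0.25). FL EYFP+ cells averaged 21.3% ± 2.8 and HL EYFP+ cells 20.6% ± 3.2 (n = 3 each; exact p = 0.700, adjusted p = 0.875, smallest possible p 0.100), the forelimb library being the larger in each of the 3 pools. EYFP+ pools averaged 20.95% ± 2.99 (n = 3) and Etv2CKO libraries 16.6% ± 4.0 (n = 7; exact p = 0.150, adjusted p = 0.375). Against the E10.5 knockout alone the sign was opposite, with a difference of -1.41 points for HL EYFP+. E10.25 Etv2CKO libraries averaged 14.5% ± 2.0 (n = 5) and wild-type libraries 14.4% ± 0.03 (n = 2; exact p = 0.952, adjusted p = 0.952).

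Within a library, desert summits were concentrated at the weaker ranks. They made up a mean of 8.07% of ranks 1 to 5000, 14.9% of ranks 5001 to 10000, 20.2% of ranks 10001 to 15000, 24.1% of ranks 15001 to 20000 and 26.5% of ranks 20001 to 25000. Over the libraries the share ran from 2.48% to 15.9% at ranks 1 to 5000, from 6.38% to 21.4% at ranks 5001 to 10000, and from 22.7% to 31.4% at ranks 20001 to 25000 in the 29 full lists. A share therefore depends on how far down a list it is taken.

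**Figure D2:**
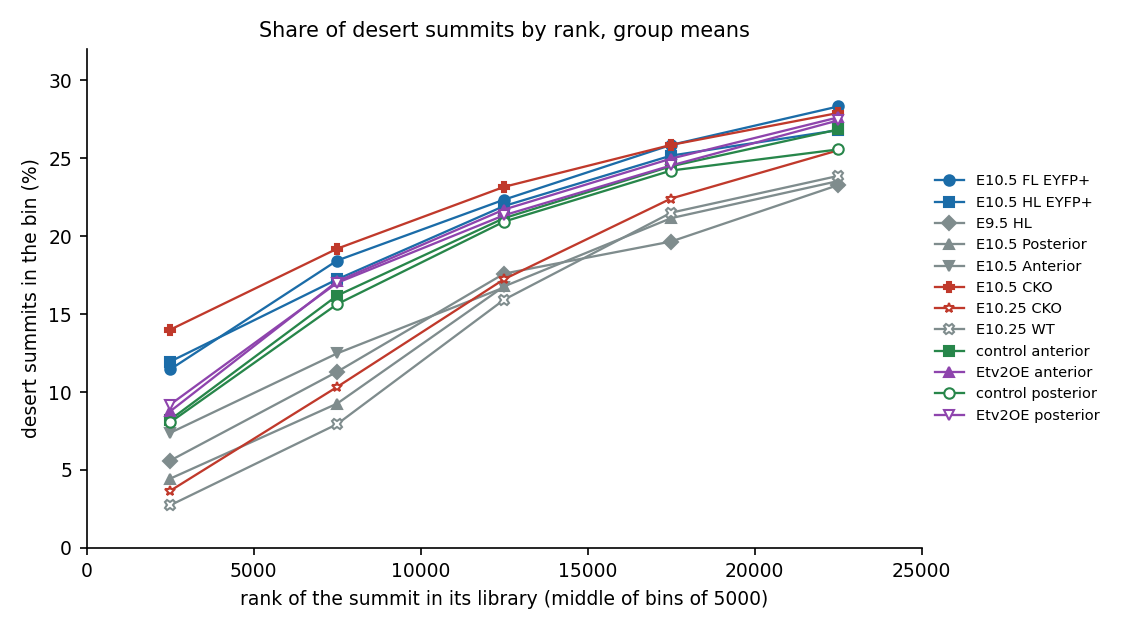
Share of desert summits, in percent, in successive bins of 5000 ranks (x axis, 1 being the strongest summit), as group means. Every group rises from left to right, from a mean over libraries of 8.07% in the first bin to 26.5% in the last, and E10.5 CKO starts highest and E10.25 WT lowest.

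Desert summits were then compared within each library with summits 10 to 100 kb from a start, over 22 units (7 embryos, 3 pools and 12 single libraries) and 12 measures. The units were treated as independent. E10.5 Anterior and E10.5 Posterior both come from Shh-EGFP hindlimbs, and whether they share embryos is not known. The median rank was 15295 for desert and 15264 for nearer summits, a difference that did not pass the test (sign-flip permutation test, two-sided, adjusted p = 0.544). Desert summits were less GC-rich, 48.5% against 52.1%, lower in 22 of 22 units. They held the CTCF core less often, 2.28% against 5.23%, lower in 22 of 22 units. CTCF is the protein that anchors many chromatin loops. TAATTA was more frequent, 12.5% against 8.32%, and so was TTTATNG, 19.1% against 13.3%, both higher in 22 of 22 units. AGATAA was found in 8.06% against 6.75%, higher in 20 of 22 units. Fewer desert summits were shared widely: 39.9% were also listed in at least 16 of the other 31 libraries, against 44.2%, lower in 19 of 22 units. This measure draws on the other libraries, so its values are not independent between units. Nor are GC content and the motif shares, since the libraries list many of the same sites. The p-values given here do not allow for this. The permutation test gave each of these 6 differences p = 2e-05, the smallest that 100000 resamples can give (adjusted p = 4e-05). AGGAAG, the ETS core, was slightly less frequent, 23.5% against 24.1% (adjusted p = 0.00147, permutation test, lower in 18 of 22 units). TGANTCA was found in 5.20% against 4.90% (adjusted p = 0.0220, permutation test, higher in 18 of 22 units). Over 50% repeat-masked windows made up 10.4% against 7.70% (adjusted p = 0.0246, permutation test), although the desert share was the higher in only 10 of 22 units. Without E10.25 CKO replicate 2 the difference was 1.73 points in place of 2.65 (adjusted p = 0.0497, permutation test). The differences in CAGCTG (-0.20 points ± 0.74, SD) and GGAATG (-0.15 ± 0.60) did not pass the test (permutation test, adjusted p = 0.26 and 0.278). The motif shares and GC content are linked, since TAATTA and TTTATNG are AT-rich, and the part of base composition in them was not tested.

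Most desert sites were seen in more than 1 library. Of the desert intervals, 17333 (70.5%) were listed in at least 2 libraries, 3096 (12.6%) in at least 16 and 76 (0.309%) in all 32. Of the 34968 intervals 10 to 100 kb from a start, 69.99% were listed in at least 2 libraries, 13.7% in at least 16 and 0.578% in all 32. Of those within 1 kb, 88.3% were in at least 2, 48.03% in at least 16 and 12.1% in all 32. The remaining 7251 desert intervals were listed in a single library. Just inside the limit, the 856 intervals up to 5 kb beyond 100 kb were listed in a median of 3 libraries, and just outside it the 891 intervals 95 to 100 kb from a start were listed in a median of 4.

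**Figure D3:**
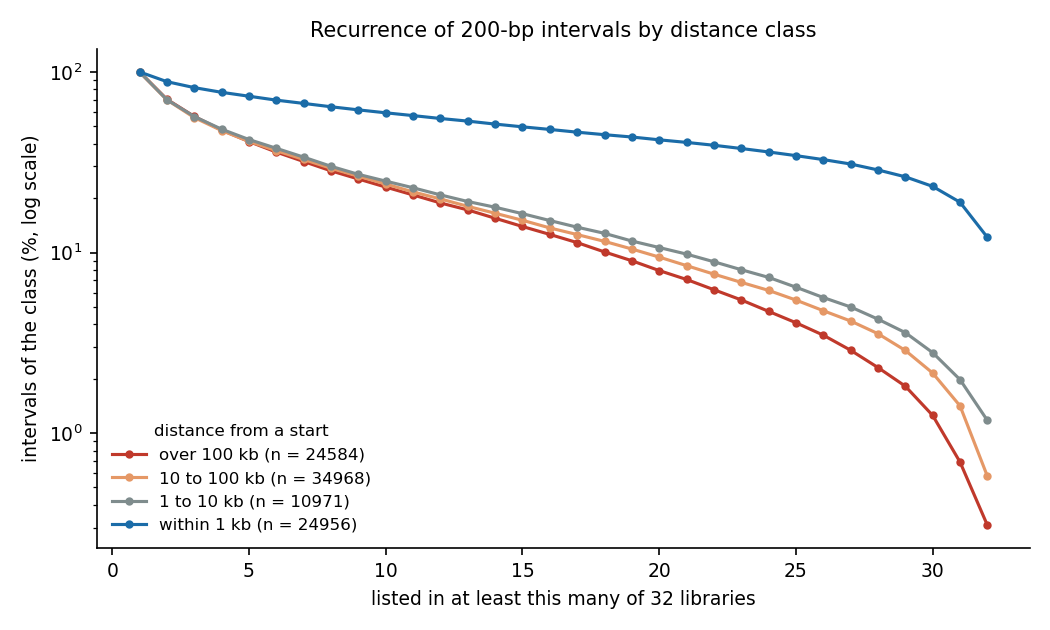
Percent of the 200-bp intervals of each distance class (y axis, log scale) that were listed in at least the number of libraries on the x axis. The desert curve follows the 2 nearer distal classes at the left, falls below them toward the right and ends at 0.309% in all 32, against 12.1% for intervals within 1 kb of a start.

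Most of the strongest of the 76 desert sites listed in all 32 libraries lay in sequence that occurs more than once in the assembled chromosomes. For each site the assembled chromosomes were searched for other copies of its 24-base words. Unplaced scaffolds and the mitochondrial genome were left out, and copies missing from the assembly could not be counted. Of the 19 sites with a median rank of 1000 or better, 16 had over 10% of their words elsewhere in the assembled chromosomes, against 7 of the 57 ranked lower. The 8 sites taken by rule (listed in most libraries, best median rank, not repeat-masked or mitochondrial, 1 per desert) all belonged to the first kind. They were chr3:5860528-5860727 beyond Gm8797 (median rank 36, with 62.7% of words repeated), chr12:78350891-78351090 in an intron of Gphn (median rank 52.5, 72.9%), chr8:20122224-20122423 beyond Gm31371 (median rank 58, 93.8%) and chr2:5379194-5379393 in an intron of Camk1d (median rank 58.5, 45.8%). The others were chr13:44869534-44869733 in an intron of Jarid2 (median rank 84.5, 57.1%), chr17:17234652-17234851 beyond Zfp97 (median rank 111, 59.9%), chr8:15519815-15520014 between Myom2 and Csmd1 (median rank 150.5, 87.6%) and chr4:64497918-64498117 between Tnc and Pappa (median rank 205, 58.8%). A word of the Myom2 site had a median of 12 copies in the assembled chromosomes. At most 24% of the bases of any of the 8 were repeat-masked. Among the 3096 sites in at least 16 libraries, 189 had over 10% of their words repeated. Whether reads from other copies contributed to these summits was not tested.

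Of the 76 sites, 47 had no word found elsewhere in the assembled chromosomes, a set drawn after the values had been seen. Their median ranks ran from 426.5 to 11735. None of the 47 held the CTCF core, which 1.75% of all desert intervals held. A gene of the list of 149 developmental genes flanked 8 of the 47 (17.0%), near the 14.4% of intervals in all deserts. Meis2, a homeodomain gene of the proximal limb, held the first of the printed sites in an intron, 195 kb from its start, and its rank in the 32 libraries ran from 413 through a median of 2025.5 to 12777. The site in the Ndfip2-Spry2 desert lay 164 kb from Spry2, a feedback inhibitor of FGF signalling, with ranks from 830 through 2578 to 6155, among the steadiest of the 47. A site in an intron of Hdac9 (chr12:34200134-34200333) lay 243 kb from Twist1, a bHLH gene needed for limb mesenchyme, with ranks from 90 through 2909 to 9322. The Tbx15-Spag17 site (chr3:99666231-99666430) lay 413 kb from Tbx15, a T-box gene of limb mesenchyme, with ranks from 1108 through 4324 to 13842. The site between Etaa1 and Meis1 (chr11:18758680-18758879) lay 260 kb from Meis1, with ranks from 1476 through 6573 to 23451. Another (chr11:113201629-113201828), at an exon of the noncoding gene 2610035D17Rik, lay 419.5 kb from Sox9, the regulator of cartilage differentiation, with ranks from 2437 through 6664.5 to 13939. The other flanked sites were in an intron of Zfhx4 (chr3:5387938-5388137, median rank 6801.5) and in an intron of Gmds, 249 kb from Foxc1 (chr13:32055364-32055563, median rank 8860.5). Of the constant sites with no listed gene beside them, the strongest was between Jun and Fggy (chr4:95317909-95318108, median rank 426.5), where Jun encodes an AP-1 protein, followed by a site 123 kb from Ldb2 (chr5:44922396-44922595, median rank 457.5), whose product is a cofactor of LIM-homeodomain proteins. Sites in introns of Ror2, a Wnt receptor (median rank 7150), and of Dync1i1 (ranks from 674 through 4942 to 12939) were also in this set, as was a site 175 kb from Fgfr1, an FGF receptor gene (chr8:25343293-25343492, ranks from 1550 through 6689.5 to 14931).

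Deserts were taken as runs of over 200 kb between consecutive protein-coding starts, of which there were 2775, and their eligible length as the part over 100 kb from both. The 10 deserts with most intervals in at least 2 libraries were led by the stretch between Zeb2 and Acvr2a on chromosome 2, with 83 intervals over 3.497 Mb, 13 of them in at least 16 libraries. Zeb2 encodes a zinc-finger homeobox repressor. A library listed from 5 through a median of 20.5 to 32 summits there. Sel1l-Flrt2 held 77 intervals, Adgrl2-Adgrl4 74, Flrt3-Kif16b 72 and Slc10a2-Efnb2 60. Flrt2, Flrt3 and the adhesion receptors of the Adgrl family bind each other at the cell surface. Kcnj2-Sox9, the long desert upstream of Sox9, held 59 over 1.52 Mb, 12 of them in at least 16 libraries. Its summits per library averaged 24 in FL EYFP+, 23.7 in HL EYFP+, 12 in E10.5 Etv2CKO and 5.8 in E10.25 Etv2CKO, and the E10.25 wild-type mean was 9.5. Control anterior and posterior libraries averaged 17.75 and 16.25, and those of Etv2OE 18.3 and 16. Its single libraries of other tissue held 14 (E9.5 HL), 6 (E10.5 Posterior) and 4 (E10.5 Anterior). Counts follow the total of desert summits too, which averaged 5321 in FL EYFP+, 5155 in HL EYFP+ and 5507 in E10.5 Etv2CKO. In E10.25 Etv2CKO, with its short lists, the total averaged 3239, and in E10.25 wild type 3599. In Zeb2-Acvr2a the means were 24.7 in FL EYFP+, 20 in HL EYFP+, 24.5 in E10.5 Etv2CKO and 10 in E10.25 Etv2CKO, so the order of the groups was not the same there. Nr2f1-Arrdc3 held 57, Ttll7-Adgrl2 56, Nmbr-Cited2 55 and Pcdh20-Pcdh9 53, the last over 5.22 Mb. In Flrt3-Kif16b 84.7% of the intervals lay within a protein-coding gene, Macrod2, and in the Zeb2, Flrt2 and Sox9 deserts none did.

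By density the order was different. Among the 661 deserts with at least 500 kb of eligible length, the median was 11.01 intervals per Mb. Tenm4-Nars2 had 88.9 per Mb (48 intervals), and every interval lay inside Tenm4, the gene of a teneurin adhesion protein. Thap1-Zfp703 had 67.8 per Mb (42), Rad51b-Zfp36l1 60.1 (37) and Mtx2-Hnrnpa3 59.99 (38). Mtx2 is the neighbour of the HoxD cluster on the Hoxd1 side, and the stretch beyond it is known as the telomeric HoxD landscape, which serves the early limb bud. Its summits per library ranged from 3 through a median of 10 to 25. Ccdc171-Bnc2 (48.5 per Mb), Kif26b-Smyd3 (48.1), Prickle1-Adamts20 (47.7), Rps24-Zmiz1 (46.8), Pros1-Epha3 (45.7) and Npvf-Nfe2l3 (44.96) completed the 10. Deserts of great length were not the densest: Pcdh20-Pcdh9 had 10.16 per Mb.

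**Figure D4:**
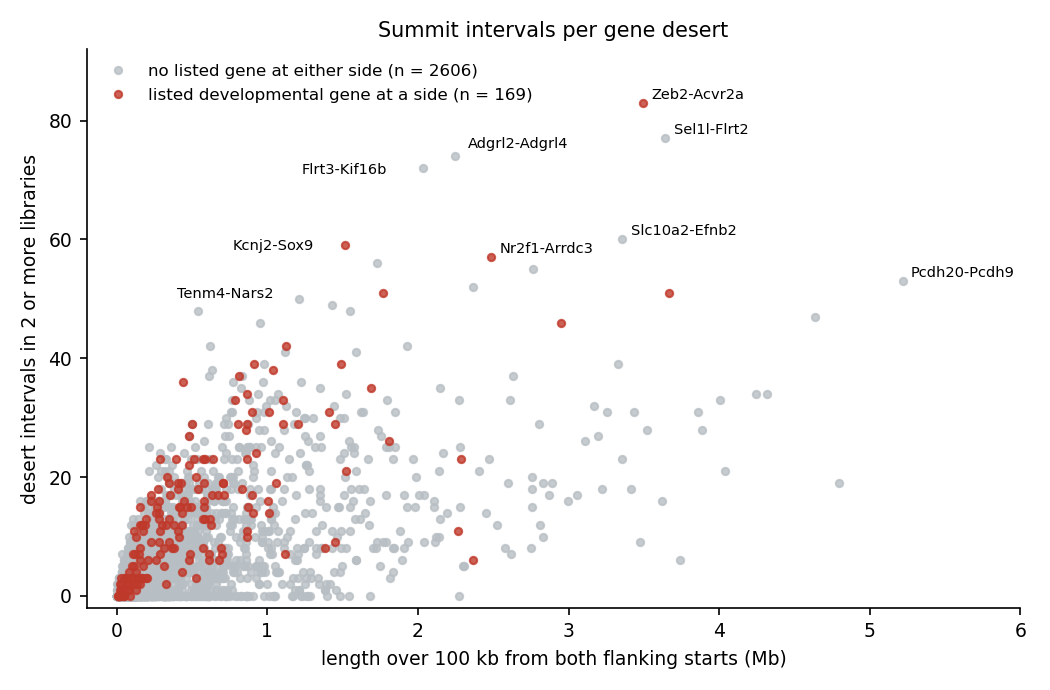
Desert intervals listed in at least 2 libraries (y axis, count) against the eligible length of the desert in Mb, 1 point for each of 2775 deserts, in red where a listed developmental gene stands at a side. Zeb2-Acvr2a is highest with 83, Tenm4-Nars2 is far above other deserts of its length, and the red points have a median of 27.8 per Mb against 12.5 for the grey.

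A developmental gene stood at a side of 169 of the 2775 deserts (122 of the 149 listed genes flanked a desert). The list was chosen with earlier results of these data known. These 169 held 2491 intervals over 97.4 Mb, 25.6 per Mb, with a median of 27.8 per Mb. The other 2606 held 14752 over 1001.9 Mb, 14.7 per Mb, with a median of 12.5. Over all deserts the value was 15.7 per Mb and the median 13.6. No interval was found in 10 of the 169 (5.92%) and in 750 of the 2606 (28.8%), and in 760 (27.4%) of all deserts. The deserts with none included the short eligible parts beside Prrx1, Msx1, Alx1, Ptch1 and Dlx6. The 2 sets differed in length too, the median eligible length being 0.408 Mb and 0.175 Mb. Among deserts of at least 500 kb the medians were 23.3 per Mb for 68 flanked deserts and 9.96 for the 593 others. In every library the flanked deserts held more summits per Mb than the others, by 1.34-fold in E10.25 CKO replicate 2 to 2.196-fold in HL EYFP+ of pool 3, with a median of 1.74. They took 11.5% to 17.6% of a library's desert summits within 8.86% of the length. E10.25 CKO replicate 2, at the low end, was the library with most repeat-masked desert summits. After the deserts of Zeb2, Sox9 and Nr2f1, the fullest were Slc4a3-Epha4 (51 intervals), Nudt12-Efna5 (51), Epha7-Map3k7 (46), Pkn2-Lmo4 (42) and Med13l-Tbx3 (39). Epha4, Epha7 and Efna5 are ephrin receptors and a ligand in limb mesenchyme, and Tbx3 is a T-box gene of the limb margins. Ndfip2-Spry2 held 36 intervals in 0.438 Mb, 82.1 per Mb.

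Anterior and posterior limb bud differed at 648 desert sites, about equally in both directions. Sites were compared by a rank score, 1 for the first summit of a library and 0 for a site not among the summits used, and tested with limma over all 46997 intervals listed in at least 2 of the 14 libraries. At an adjusted p of 0.05, 2.95% of all intervals tested were called. Of the 10375 desert intervals tested 648 (6.25%) were called, 314 higher in anterior and 334 higher in posterior limb bud. The called share was 3.94% at 10 to 100 kb, 1.98% at 1 to 10 kb and 0.306% within 1 kb of a start. By presence alone, 130 desert intervals (1.25%) were listed in every library of one side and none of the other, beside 0.489% of all intervals tested. With the embryo as a block, 424 desert intervals were called (4.09%), beside 1.84% of all. Leaving out any 1 library gave 504 to 607 (4.96% to 6.01%), beside 2.39% to 2.85% of all.

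The 5 anterior sites of smallest adjusted p were listed in all 7 anterior libraries. A site in an intron of Dtd1 (chr2:144700684-144700883) ranked 3876, 5287 and 6661 (lowest, median, highest) in the anterior libraries. It was listed in 1 of 7 posterior libraries, at rank 20098. The score difference, anterior minus posterior, was 0.77 ± 0.03 (SE), limma adjusted p = 1.27e-07. The C9orf72-Lingo2 site (chr4:35477677-35477876) ranked 3389, 8507 and 10708 in anterior libraries and was in no posterior library (difference 0.68 ± 0.03, limma adjusted p = 5.24e-07). The printed Adgrl3 intron site ranked 4498, 8308 and 11289 in anterior libraries and was in 1 posterior library, at 22890. Adgrl3 encodes a latrophilin adhesion receptor. The Tlr4-Brinp1 site (chr4:66983151-66983350) ranked 6731, 9477 and 12469 in anterior libraries and was in no posterior library. The Tbc1d2b-Zic1 site lay 404 kb from Zic1, a zinc-finger gene of the dorsal neural tube and somites, and ranked 4434, 5336 and 10854 in anterior libraries. No posterior library listed it (difference 0.72 ± 0.05, limma adjusted p = 3.43e-06).

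Of the posterior sites of smallest adjusted p, 4 are described, each listed in all 7 posterior libraries. A site in an intron of Sgcz (chr8:37925119-37925318) ranked 2855 to 9283 in posterior libraries and was in no anterior library (score difference, anterior minus posterior, -0.77 ± 0.03, limma adjusted p = 1.27e-07). The Kcna4-Mettl15 site ranked 5193 to 9831, and 1 anterior library listed it at 23599. The site in an intron of Fars2 ranked 6376 to 11132 in posterior libraries and was in no anterior library. The last of the 4 lay in an intron of Fmn1, 183 kb from Grem1 (chr2:113576037-113576236). Grem1 encodes a BMP antagonist of the posterior limb mesenchyme. This site ranked 7110 to 13557 in posterior libraries, and 2 anterior libraries listed it, at 21824 and 23286 (difference -0.57 ± 0.04, limma adjusted p = 2.59e-06). The ranks of the anterior and posterior libraries overlapped at none of these 9 sites, which were chosen for the difference between those same libraries.

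**Figure D5:**
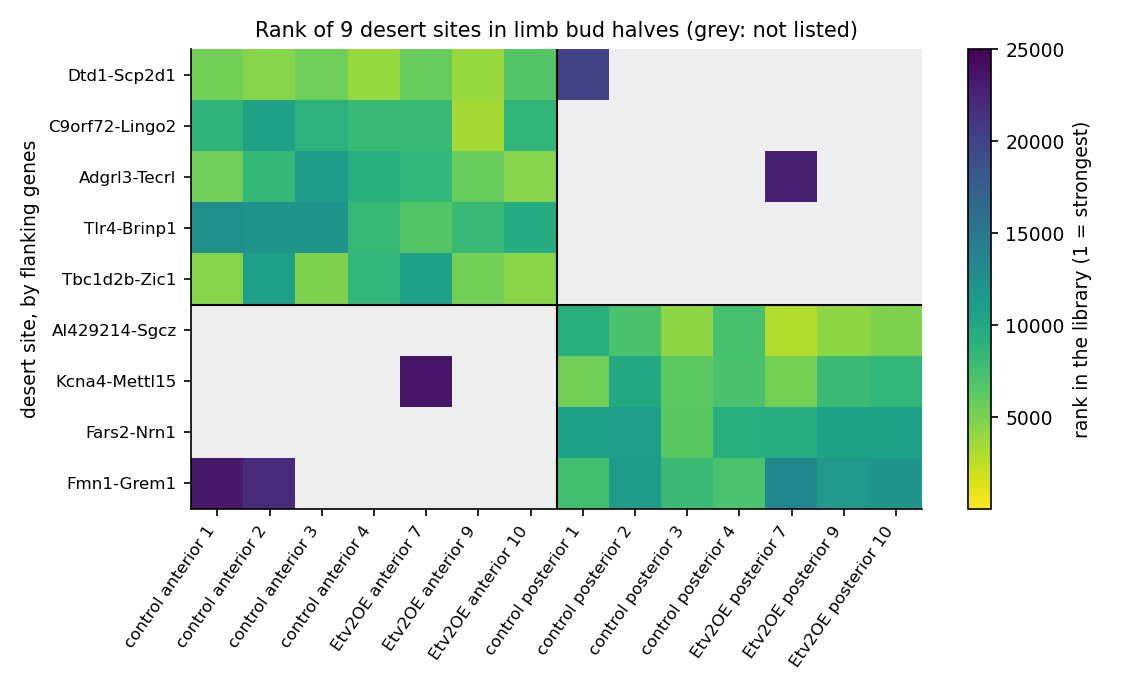
Rank of 9 desert sites (rows, named by flanking genes) in the 7 anterior and 7 posterior libraries (columns), coloured from rank 1 to 25000, grey where the site was not among the summits used. The upper 5 sites are listed in every anterior and at most 1 posterior library, the lower 4 in every posterior and at most 2 anterior libraries.

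The libraries of the other experiment, which took no part in the test, did not all divide the 2 sets by part of the limb. E10.5 Posterior, the Shh-EGFP+ cells, listed 113 (33.8%) of the 334 posterior-higher sites and 80 (25.5%) of the 314 anterior-higher sites, beside 26.5% of all desert intervals tested. E10.5 Anterior, a short list, held 7 (2.10%) and 53 (16.9%), beside 8.93%. None of the 9 named sites was in E10.5 Anterior, and E10.5 Posterior listed 2 of the anterior and 1 of the posterior ones. EYFP+ libraries listed 58.6% to 84.7% of the anterior-higher sites and 22.2% to 42.2% of the posterior-higher sites, beside 32.5% to 47.4% of all tested. E9.5 HL listed 9.24% and 17.1%, beside 20.0%. The E10.25 wild-type libraries, described as posterior, listed 35.7% and 30.6% of the anterior-higher sites and 18.0% and 14.7% of the posterior-higher sites, beside 26.9% and 25.3% of all tested. The E10.5 Etv2CKO libraries, also posterior, listed 33.4% and 36.6% of the former and 25.1% and 25.4% of the latter, beside 28.2% and 28.6%. In the E10.25 Etv2CKO libraries the shares ran from 5.41% to 37.3% and from 2.69% to 19.2%, beside 5.10% to 26.8%, and replicate 1 listed 14.6% and 14.97%, beside 17.3%. The differences between these shares were not tested. Copies elsewhere in the assembled chromosomes were counted only for sites in at least 16 libraries, which 4 of the 9 named sites were.

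The 2 sets also differed in letters. TTTATNG, the posterior HOX core, was present in 135 (40.4%) of the posterior-higher sites and 59 (18.8%) of the anterior-higher sites, beside 23.2% of desert intervals tested. TAATTA was present in 27 (8.08%) and 57 (18.2%), beside 13.2%. The CTCF core was found in 2 and 1 of them, beside 2.53%. The same letters divided the libraries. TTTATNG was present at 19.7%, 22.2% and 23.8% (lowest, median, highest) of the desert summits of the anterior libraries and 25.3%, 26.3% and 27.2% of those of the posterior libraries. TAATTA was present at 13.1%, 14.8% and 15.3% in anterior and 12.2%, 12.7% and 12.8% in posterior libraries. Neither motif's ranges overlapped. Nor did the TTTATNG ranges overlap at summits 10 to 100 kb from a start, with 13.4% to 16.4% in anterior and 17.6% to 19.3% in posterior libraries, whereas those of TAATTA did there (8.59% to 10.8% and 8.29% to 9.20%). These shares were looked at after the sites had been called and carry no test.

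Called sites were spread thinly over the deserts, at most 6 in any. Zeb2-Acvr2a held 2 anterior-higher and 4 posterior-higher sites of 55 tested. The deserts on either side of Tbx18, a T-box gene of anterior and proximal limb mesenchyme, held 7 anterior-higher sites and 1 posterior-higher: 4 of 14 tested in Cep162-Tbx18 were higher in anterior, and in Tbx18-Nt5e 3 were higher in anterior and 1 in posterior limb bud, of 16. Itga1-Isl1, beside the LIM-homeodomain gene Isl1 that acts upstream of Shh in the hindlimb, held 4 posterior-higher sites of 20 and no anterior-higher one, and so did Flrt3-Kif16b (of 43) and Tenm3-Aga (of 27), with no listed gene beside them. A tally of 3 posterior-higher sites and no anterior-higher one was found in 6 deserts, of which 3 had a listed gene (Ndfip2-Spry2, Med13l-Tbx3 and Ebf1-Clint1). A tally of 2 anterior-higher sites and no posterior-higher one was found in 22, of which 4 had a listed gene, among them Sp4-Sp8 and Adamts16-Irx1. At the matching cuts, 3 anterior-higher sites alone were found in 2 deserts, 0 of them with a listed gene. A tally of 2 posterior-higher sites alone was found in 16, of which 3 had a listed gene. These deserts were singled out after their counts had been seen. Over the 169 flanked deserts, 48 sites were higher in anterior and 56 in posterior limb bud, 6.68% of 1557 tested, near the 6.25% of all desert sites tested.

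EYFP+ cells, which are sorted, and Etv2CKO limb bud, which is not, differed at 1320 of 11816 desert intervals tested (11.2%), beside 6.40% of all intervals tested. The called share was 8.55% at 10 to 100 kb, 5.75% at 1 to 10 kb and 1.96% within 1 kb of a start. Of these, 1242 were higher in EYFP+ cells and 78 in the knockout. By presence alone, 283 desert intervals (2.40%) separated the groups completely, beside 1.21% of all. The direction turned with the libraries that entered. HL EYFP+ against the 2 E10.5 Etv2CKO libraries, which leaves out both the FL EYFP+ and the E10.25 knockout libraries, gave 129 desert intervals higher in EYFP+ cells and 395 higher in the knockout (7.11% called, beside 3.93% of all). Over all intervals the direction turned too, with 423 and 928. Of the 7 knockout libraries 5 were E10.25 tissue, whereas the EYFP+ cells were E10.5, and 2 of those E10.25 lists were short, without which 868 and 193 were called (9.48%, beside 5.88% of all). Without EYFP+ pool 3 the count was 2252 (20.5%, beside 11.1%), and with the replicate number as a block, which marks no shared animal, it was 499 (4.22%, beside 2.44%). Libraries that are not mutant listed the sets in either direction. The 14 control and Etv2OE libraries listed 51.9% to 75.7% of the EYFP+-higher sites and 14.1% to 25.6% of the CKO-higher sites, beside 29.5% to 36.1% of those tested. E10.5 Posterior listed 36.5% and 50.0%, beside 25.7%. E9.5 HL listed 8.45% of the EYFP+-higher sites and 83.3% of the CKO-higher sites, beside 24.9% of those tested, and the E10.25 wild-type libraries listed 31.4% and 28.5% of the former and 74.4% and 66.7% of the latter, beside 29.98% and 29.7%. Genotype, sorting and stage cannot be told apart in the pooled comparison.

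The EYFP+ site of smallest adjusted p lay between Nudt12 and Efna5 (chr17:59270475-59270674). It ranked 505, 1815 and 4219 (lowest, median, highest) in the 6 EYFP+ libraries and was in none of the 7 Etv2CKO libraries (score difference 0.91 ± 0.03, limma adjusted p = 1.31e-06). A site between Robo1 and Robo2, the genes of Slit receptors, ranked 1636, 3710 and 6980 in EYFP+ libraries (chr16:73120688-73120887). The Gja1-Hsf2 site, 460 kb from the connexin 43 gene Gja1, ranked 646, 2243.5 and 5209 (chr10:56839190-56839389). The printed Cxxc4-Tacr3 site, 369 kb from Cxxc4, an inhibitor of Wnt signalling, ranked 2162, 4569 and 8330. The Fbxl17-A930002H24Rik site (chr17:63686028-63686227) ranked 3676, 5890.5 and 8490. No Etv2CKO library at either stage listed any of these 5. In the other direction, a site in the noncoding gene Gm40438 between Dact1 and Daam1 (chr12:71433704-71433903) was listed in all 7 Etv2CKO libraries at 5512 to 9845 and in no EYFP+ library (difference -0.67 ± 0.05, limma adjusted p = 3.19e-05). Dact1 and Daam1 both act in Wnt signalling. Sites beside St6galnac5 (chr3:152855269-152855468), Kazn (chr4:142776946-142777145) and Tns1 (chr1:73758436-73758635) were listed in all 7 knockout libraries and in 4, 4 and 0 of the 6 EYFP+ libraries, at ranks that did not overlap. TAATTA was present in 286 (23.0%) of the EYFP+-higher desert sites and in 5 (6.41%) of the CKO-higher ones, beside 13.998% of those tested. AGATAA, the GATA core, was present in 63 (5.07%) and 17 (21.8%), beside 8.67%. AGGAAG was present in 286 (23.0%) and 24 (30.8%), beside 23.5%.

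At E10.25, Etv2CKO and wild-type limb differed at 260 of 6200 desert intervals tested (4.19%), beside 2.93% of all intervals tested, with 33 higher in the knockout and 227 in the wild type. Without the 2 short knockout lists the counts were 76 and 164 (4.42%, beside 3.91% of all). The called share was 4.62% at 10 to 100 kb, 4.24% at 1 to 10 kb and 1.24% within 1 kb of a start, so desert intervals were called no more often than the nearer distal ones. By presence alone, 424 desert intervals (6.84%) separated the groups, beside 5.11% of all. The limma calls rested on both wild-type libraries, since without either of them it called 0 desert intervals at adjusted p 0.05, with 382 of 5506 (6.94%) and 398 of 5501 (7.24%) at an unadjusted p under 0.05, beside 5.52% and 5.30% of all intervals tested. The lone wild-type library was then assumed to vary like the knockout libraries. Without E10.25 CKO replicate 1 limma called 132 (2.35%, beside 2.19% of all) and without replicate 5 it called 155 (2.89%, beside 2.42%). The labels carry the same date for both wild-type libraries and a different one for each knockout library, so date and genotype cannot be told apart. Shares of repeat-masked desert summits were 24.6%, 62.3%, 5.40%, 5.90% and 23.1% in the knockout libraries and 5.20% and 10.8% in the wild type. The leading knockout-higher site, between Marcks and Rfpl4b (chr10:37637348-37637547), ranked 2083, 2407 and 5248 (lowest, median, highest) in the 5 Etv2CKO libraries and was in neither wild-type library (difference 0.88 ± 0.06, limma adjusted p = 0.00188). The Dact1-Daam1 site was again among the 5, at 6200 to 9845 in Etv2CKO and unlisted in wild type, in a comparison that shares those 5 Etv2CKO libraries with the previous one. The others were Lnx1-Chic2 (chr5:74905858-74906057), Sgcd-Rack1 (chr11:48314310-48314509) and an intron of Immp2l (chr12:41355202-41355401), each in 5 of 5 Etv2CKO libraries and 0 of 2 wild-type libraries. The leading wild-type-higher site lay between Klhl1 and Dach1 (chr14:97086785-97086984), 567.8 kb from the first and 1083 kb from the second. Dach1 encodes a corepressor expressed in distal limb. It ranked 8290 and 8810 in the wild type and was in none of the 5 Etv2CKO libraries (difference -0.66 ± 0.05, limma adjusted p = 0.00188). Sites in introns of Hydin (chr8:110500422-110500621) and Lama2 (chr10:27285149-27285348) and in the Pcdh20-Pcdh9 (chr14:89554180-89554379) and Trim33-Syt6 (chr3:103383275-103383474) stretches followed, in 2 of 2 wild-type libraries and in at most 1 of 5 knockout libraries. The Trim33-Syt6 site held the CTCF core.

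Overexpressed Etv2 left no called desert site. Of 46997 intervals tested with limma in the Etv2OE and control embryos, 0.00851% were called (4 intervals), and none of the 10375 desert intervals was, while 624 (6.01%) had an unadjusted p under 0.05, beside 6.42% of all intervals. With the anterior libraries alone 6 of 7636 desert intervals (0.0786%) were called, beside 0.113% of all intervals tested. With the posterior libraries alone 5 of 7411 (0.0675%) were, beside 0.114%. Forelimb and hindlimb EYFP+ cells gave 0% called of 37060 intervals with limma, with 662 of 7956 desert intervals (8.32%) at an unadjusted p under 0.05, beside 5.46% of all intervals. By presence alone, 347 desert intervals (4.36%) were listed in all 3 libraries of 1 limb and in none of the other, beside 2.57% of all intervals tested. The differences between these shares were not tested. With 3 embryos or pools in a group, these counts do not show that differences are absent.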

How the data were processed

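Nuclei of 32 limb bud samples were profiled by ATAC-seq. Per the labels and the study's methods, the authors aligned paired reads to mm10 with Bowtie2 2.2.4, removed duplicates, offset reads for the transposase and called summits in each library with MACS2, whose version is not given in the sources used here. Each deposited list gives a position and a −log10 q value per summit, computed by the authors. It holds no counts, so depth is unknown and intervals cover counting error only. Summits were ranked by −log10 q, mitochondrial ones left out, and placed against 41408 protein-coding starts of the GENCODE annotation of GRCm38.p6. They were merged greedily into 200-bp intervals, listed in a library with a summit within 200 bp of the centre. Rank scores were compared with limma 3.58.1 (R 4.3.3) over all intervals listed in at least 2 libraries compared, with Benjamini-Hochberg adjustment, and shares with permutation tests (scipy 1.17.1 on Python 3.11.15). The scripts were tested on simulated data.

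The members, motifs, the list of 149 developmental genes and the tests were chosen with earlier results of these data known. Sites were named by 3 rules: the 8 listed in most libraries, not over 50% repeat-masked or with over 10% mitochondrial words and at most 1 per desert; the 10 deserts with most intervals and the 10 densest; and per comparison the 5 of smallest adjusted p in each direction, listed in at least 50% of the higher group. Some sites that these rules name are not reported here. Other sites are said to be chosen after their values were seen. Samples count as separate animals or pools only as far as labels and methods say. Forelimb and hindlimb libraries were assigned to a pool by their number in the labels alone (correlation of deviations 0.199 to 0.463 within pools, -0.274 to 0.0927 between). Anterior and posterior libraries come from the same numbered embryo (-0.0021 to 0.0436, against -0.0332 to 0.0312).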

Additional observations from a re-analysis of the deposited data

Results flagged for a closer look

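Of 12 sets of libraries and measures examined, 1 held a library far from the others. In the anterior library of control embryo 1, 44.8% of the desert summits were also listed in at least 16 other libraries. The anterior libraries of the other 3 controls lay between 46.6% and 46.8%. Chance alone flags about 1 set in 20 by this criterion.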

How the results depend on the processing

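In each of the 5 comparisons at least 1 alternative turned the direction of the desert share, and no alternative passed the test after adjustment. For Etv2OE, FL minus HL and E10.25 CKO minus WT none could have passed, given the sizes of the groups. With whole deposited lists the differences were -1.09 points for Etv2OE, -1.06 for anterior minus posterior and -2.59 for E10.25 CKO minus WT, and with −log10 q of at least 3 they were -1.10, -0.68 and -2.19. HL EYFP+ against E10.5 CKO gave -1.41. At E10.25 the difference was -0.37 at over 50 kb, -1.87 without repeat-masked summits and -0.098 without X and Y. Leaving out 1 library gave -0.999 to 2.195 for FL minus HL and -0.705 to 0.531 at E10.25. For FL minus HL this left 1 pool with a single limb. Within the 3 pools the differences were 0.256, 0.636 and 1.1. Leaving out 1 embryo or library kept the direction for Etv2OE (0.721 to 1.05), anterior minus posterior (0.184 to 0.496) and EYFP+ minus CKO (2.89 to 5.87).

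Counts of called desert intervals moved more. For anterior minus posterior (648) they were 384 at over 200 kb (6.93% of desert intervals tested, beside 2.95% of all), 97 in the top 10000 (3.61%, beside 1.25%), 323 within 100 bp (3.53%, beside 1.70%), 130 by presence in every library of only one side, and 504 to 607 leaving out 1 library. For EYFP+ minus CKO (1320) the counts were 750 at over 200 kb (11.6%, beside 6.40%), 276 in the top 10000 (8.89%, beside 3.97%), 283 by presence, 524 for HL EYFP+ against E10.5 CKO, and 1070 to 2252 leaving out 1 replicate. At E10.25 (260) they were 410 at over 50 kb and 122 at over 200 kb (4.24% and 3.76%, beside 2.93%), 30 in the top 10000 (2.99%, beside 2.05%), 168 within 100 bp (3.503%, beside 2.75%), 424 by presence, and 0 to 282 leaving out 1 library. For Etv2OE (0) they were 1 at over 50 kb (0.00634%, beside 0.00851%), 2 within 100 bp (0.0219%, beside 0.0366%), 3 for intervals in at least 1 library (0.0213%, beside 0.0351%), and 6 and 5 for anterior and posterior libraries alone. For FL minus HL (0) they were 19 for intervals in at least 1 library (0.153%, beside 0.127%) and 347 by presence. The shares by presence were 1.25%, 2.40%, 6.84% and 4.36% of desert intervals tested in these comparisons other than Etv2OE, in the order given, beside 0.489%, 1.21%, 5.11% and 2.57% of all intervals.

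With the replicate block, the counts were 424 for anterior minus posterior, 0 for FL minus HL, 499 for EYFP+ minus CKO and 0 at E10.25, and the paired share differences were 0.341 (anterior minus posterior) and 0.664 (FL minus HL). In the EYFP+ to CKO and E10.25 comparisons the samples share only a number (same-number correlations of -0.0796 to 0.0208 and -0.0041 to 0.0210). The cause of these movements was not tested. Leaving out the 3 short lists, and single units of the desert to nearer comparison, was chosen after seeing the data. No list held a summit on an unplaced scaffold, so the alternative that counts scaffolds was not run. Ranks replace signal here, so an absolute gain or loss of accessibility cannot be read.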
